A study of Mus musculus with 4 samples.

Results

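The contactin-associated protein (Caspr) family was followed through single-nucleus RNA sequencing of the mouse hypothalamus. Its members here are the 7 genes Cntnap1, Cntnap2, Cntnap3, Cntnap4, Cntnap5a, Cntnap5b and Cntnap5c, of 32285 genes in the count matrices. They were taken by name, and the family was chosen by its summed UMIs per cell type in these same libraries, so levels across cell types are given as a description. For every member, the unique molecular identifiers (UMIs) were summed per library over each cluster and neuronal sub-cluster that the submitters had annotated.

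The study compared WT mice with TRα1+m mice, which carry, beside a wild-type copy, an allele of thyroid hormone receptor α1 with an exchanged amino acid that lowers its affinity for the hormone. Both groups were adult males bred on the C57/BL6NCr background. Each of 2 experimental repeats gave a WT and a TRα1+m library, and each library pooled the nuclei of 3 mice, so the 12 mice gave n = 2 libraries per genotype and the spread between single mice was not measured. The hypothalamus was dissected whole and snap frozen, and the labels give no regions within it.

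The Casprs are large transmembrane relatives of the neurexins that sit on axons and bind contactins, a group of immunoglobulin adhesion proteins. Caspr, made from Cntnap1, forms the paranodal junction beside the node of Ranvier together with Cntn1, facing glial neurofascin. Caspr2, made from Cntnap2, holds Shaker-type potassium channels at the juxtaparanode together with Cntn2. The other members are better known from synapses and cell contacts of neurons than from myelinated axons.

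The genes are of very unequal size, which matters because reads in introns were counted. On build GRCm38, Cntnap2 spans 2244.9 kb of the plus strand at chr6:45059357-47304213. Cntnap5a (chr1:115684756-116587323, plus), Cntnap5b (chr1:99772765-100485942, plus) and Cntnap5c (chr17:57769570-58410355, plus) span 902.6, 713.2 and 640.8 kb. Cntnap4 (chr8:112570043-112882717, plus) spans 312.7 kb and Cntnap3 (chr13:64736182-64903955, minus) 167.8 kb. Cntnap1 lies at chr11:101170523-101190724 on the plus strand and spans only 20.2 kb. The reference transcript of each member has 24 exons. These exons fill 26.9% of the Cntnap1 span but between 0.44% and 3.78% of the others. No gene of the matrices overlaps a member on its own strand. On the opposite strand, Plekhh3 and Ccr10 overlap Cntnap1 and Gm45904 overlaps Cntnap4.

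The 3 Cntnap5 genes are near copies of each other in coding sequence, and they are set side by side below, so the stretch where they are hardest to tell apart is shown. Coding identity was 89.72% between Cntnap5a and Cntnap5b, 90.31% between Cntnap5a and Cntnap5c and 90.04% between Cntnap5b and Cntnap5c. Cntnap3 and Cntnap4 shared 69.9%, and the other pairs 54.89% to 62.09%. The longest exact run shared by the transcripts of Cntnap5a and Cntnap5b was 91 bases, in exon 10 of both. It is printed below with 12 bases on either side, from GRCm38, plus strand, 5′ to 3′, and the capitals mark the bases that differ between both genes. The Cntnap5a stretch is chr1:116188290-116188404 and the Cntnap5b stretch chr1:100164094-100164208.
Cntnap5a: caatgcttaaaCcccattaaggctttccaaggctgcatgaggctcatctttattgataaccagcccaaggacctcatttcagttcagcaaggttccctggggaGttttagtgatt
Cntnap5b: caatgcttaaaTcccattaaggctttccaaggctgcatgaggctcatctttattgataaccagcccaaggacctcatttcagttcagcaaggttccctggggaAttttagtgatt
The reference transcripts of this pair shared 57 different windows of 50 bases, counted at every start position. These windows overlap, so a longer run such as the 91 bases above gives many of them. Cntnap5a and Cntnap5c shared 54 such windows, Cntnap5b and Cntnap5c 43, and every other pair of members 0. Exons make up 1.21% of the Cntnap5a span and 0.56% of the Cntnap5b span. How reads in these shared stretches were assigned was not tested.

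The annotation held 56386 nuclei, of which 35756 were in the large neuronal cluster Neurons_1, 9535 in astrocytes, 6135 in oligodendrocytes, 2110 in oligodendrocyte precursors (OPC) and 1779 in microglia and macrophages. The kept nuclei gave 47260127 to 59112785 UMIs per library. Between 62 and 91 barcodes were shared by any pair of libraries. Neurons_2, with 852 of its 864 nuclei from a single library (TRα1+m 2), entered no comparison. The names of 2 neuronal sub-clusters went against their leading genes. In the sub-cluster labelled Orexin+, Hcrt, the orexin gene, was at 69.6 ± 30.6 CPM (the UMIs of a gene scaled by all UMIs of that cluster and library, mean ± SD, n = 4), below its 827 ± 505 CPM in the sub-cluster Glutamatergic Neurons_2. Its leading genes against all of Neurons_1 were Hdc, Slc16a10, Wif1, Prph and Slc26a4. The sub-cluster labelled MCH held Pmch, the melanin-concentrating hormone gene, at 9491 ± 8878 CPM, but it was led by Flt1, Slco1a4, Cldn5, Adgrl4 and Rgs5, which mark vessels. Of its nuclei 21.5% held at least 2 vascular marker genes, against 1.72% of Neurons_1 as a whole. The leading genes of AVasopressin, Somatostatin+ and CART Neurons_1 did not include Avp, Sst or Cartpt, the genes of their names. All sub-clusters are called here by their labels.

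Mean levels of every member were higher in Neurons_1 than in any glial cluster. In sums over nuclei, fewer nuclei of a kind within a cluster and less RNA per nucleus cannot be told apart. Cntnap2, the Caspr2 gene, was at 4806 and 4721 CPM in the Neurons_1 nuclei of WT libraries 1 and 2 and at 4728 and 4375 CPM in TRα1+m libraries 1 and 2. It gave 69.5% ± 0.68 (SD, n = 4) of all Caspr UMIs in these neurons. Cntnap5a followed with 1093, 1052, 1053 and 966 CPM in the same order of libraries. Cntnap5b stood at 506, 431, 475 and 396 CPM, Cntnap4 at 264, 231, 254 and 233 CPM and Cntnap5c at 253, 213, 283 and 222 CPM. Cntnap1, the paranodal Caspr gene, was at 25.6, 39.5, 24.3 and 34.2 CPM, and Cntnap3 at 27.6, 27.5, 30.1 and 29.9 CPM. The libraries of both genotypes overlapped for 6 members, and the repeat 2 libraries were the higher ones for Cntnap1. For Cntnap3 both TRα1+m libraries were slightly above both WT libraries, and it was not called between genotypes. The share of all genes that split in this way was not counted, so nothing is read from this split.

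The order of the members was different per length. Divided by the gene span, Cntnap2 was at 207 ± 8.56 CPM per 100 kb in Neurons_1 and Cntnap1 at 153 ± 35.8 (SD, n = 4), the widest spread of the family. Cntnap5a then stood at 115 ± 5.92, Cntnap4 at 78.4 ± 5.16, Cntnap5b at 63.4 ± 6.79, Cntnap5c at 37.9 ± 4.97 and Cntnap3 at 17.1 ± 0.82 CPM per 100 kb. So Cntnap1, the shortest gene, was second to last by CPM and second only to Cntnap2 per length. The difference between Cntnap1 and Cntnap5a per length was about as large as the SD of Cntnap1.

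Thinned to 900 UMIs each, 87.8% ± 1.46 of Neurons_1 nuclei held a Cntnap2 UMI, 47.9% ± 1.94 a Cntnap5a UMI, 24.9% ± 1.63 a Cntnap5b UMI, 17.0% ± 0.92 a Cntnap4 UMI and 15.8% ± 1.70 a Cntnap5c UMI (SD, n = 4). For Cntnap1 and Cntnap3 the thinned shares were 2.75% ± 0.55 and 2.12% ± 0.10. At full depth, with a median of 4380 UMIs, the shares were 97.5%, 79.1%, 52.7%, 47.7%, 40.6%, 13.6% and 8.81% in this order of genes. After thinning, 4.66% ± 0.97 of these neurons held UMIs of no member, 28.8% ± 1.87 of a single member, 37.5% ± 0.91 of 2 members and 22.3% ± 1.28 of 3.

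**Figure D1:**
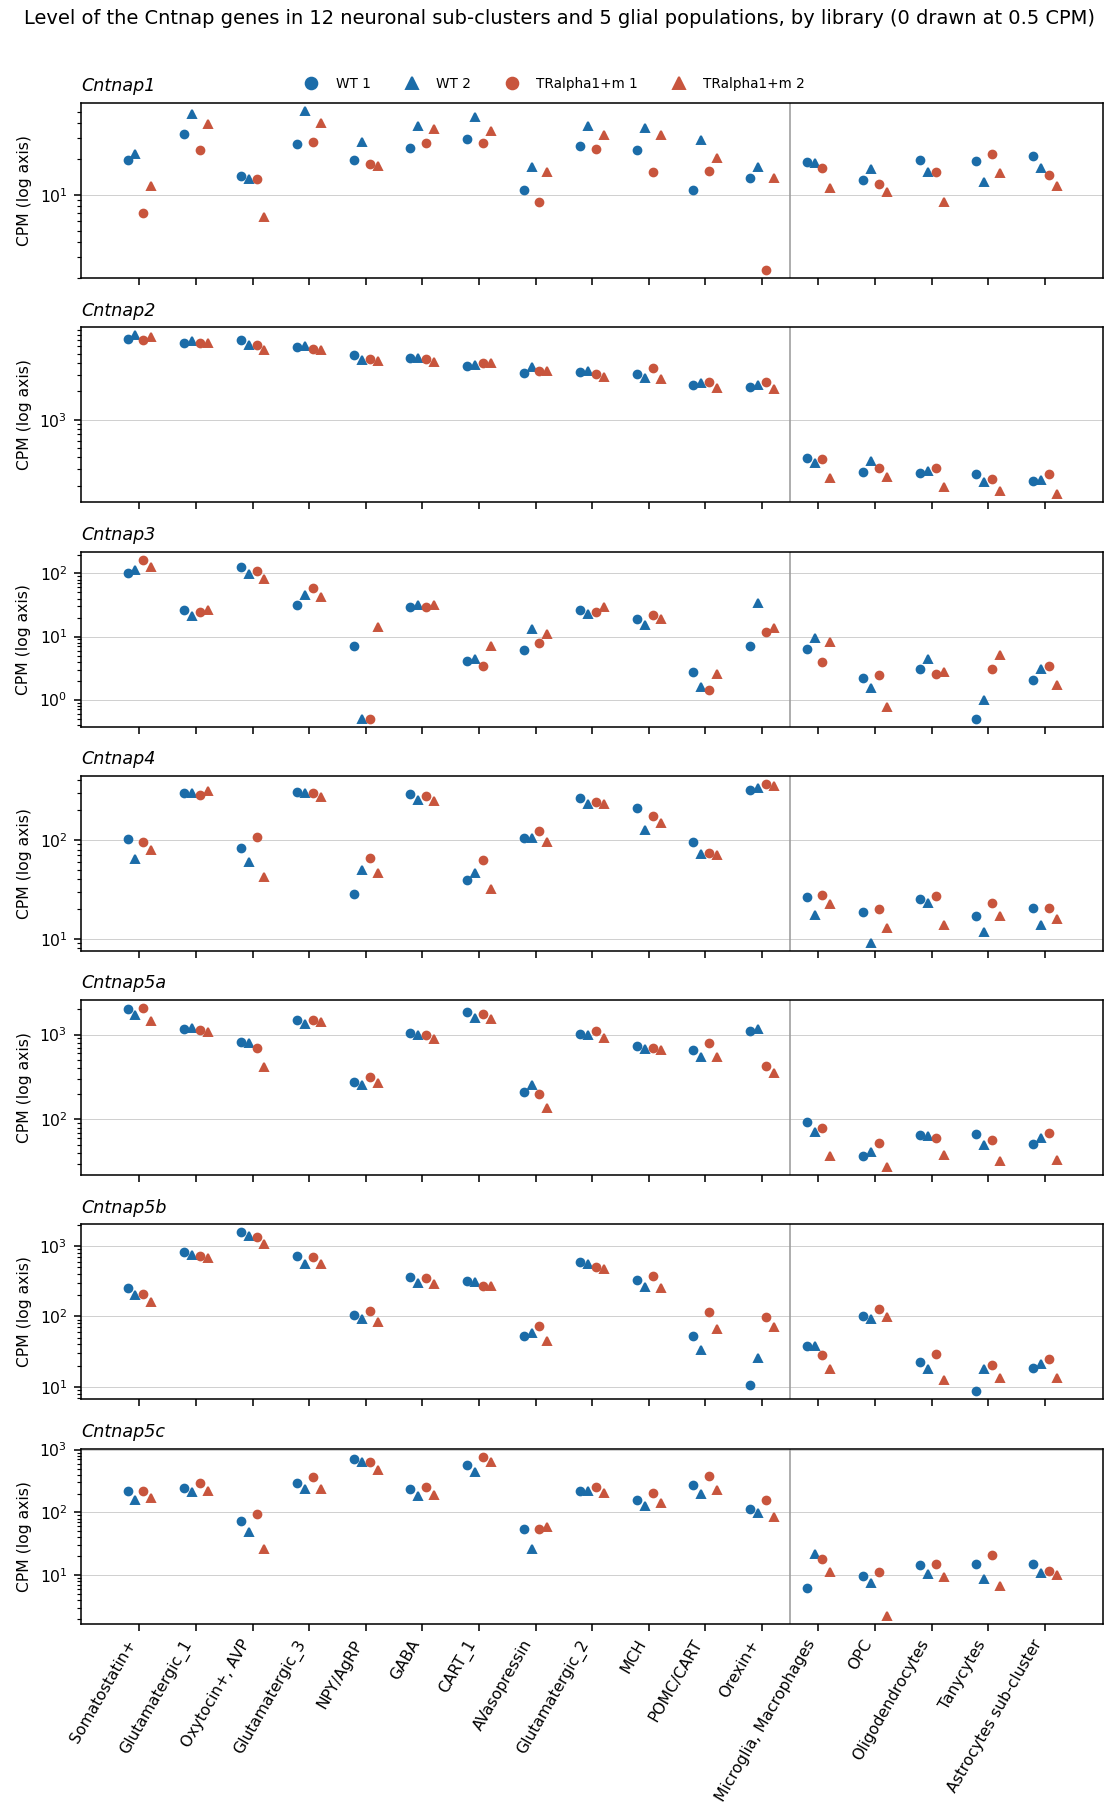
Level of the 7 members in CPM (log axis, 1 panel a gene) in 12 neuronal sub-clusters, left of the grey line, and 5 glial populations, right of it; each point is a library, blue for WT and red for TRα1+m, circles for repeat 1 and triangles for repeat 2, and a level of 0 is drawn at 0.5 CPM. Sub-cluster means span 3.23-fold for Cntnap2 and 60.7-fold for Cntnap3, and Cntnap5a splits by genotype in the sub-cluster labelled Orexin+.

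Among glia the members were low, with an exception in OPC. Cntnap2 averaged 265 ± 49.2 CPM in oligodendrocytes, 221 ± 41.5 in astrocytes, 299 ± 49.4 in OPC and 341 ± 67.3 in microglia and macrophages. The thinned share of nuclei with a Cntnap2 UMI was 18.1% to 24.2% in these 4 clusters. Cntnap5b was at 101.97, 91.6, 129 and 97.4 CPM in the OPC of WT 1, WT 2, TRα1+m 1 and TRα1+m 2. In the other 3 glial clusters it ran from 12.7 to 38.5 CPM, so no library of them reached the lowest OPC library. The thinned share with a Cntnap5b UMI was 9.34% ± 1.53 in OPC and 1.72% to 2.81% on average in the others.

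Free RNA from neurons can reach glial droplets, and its profile was not measured here. Each member was therefore set against 6 neuronal genes (Syt1, Snap25, Rbfox3, Snhg11, Meg3 and Celf4). Together they were at 15973 ± 2493 CPM in Neurons_1 and 1911 to 2487 CPM on average in glia. In Neurons_1 the UMIs of a member per UMI of these genes define a ratio of 1. In glia the ratio was 0.39 to 0.50 for Cntnap2, 0.29 to 0.44 for Cntnap5a and 0.23 to 0.43 for Cntnap5c (cluster means), below 1 in every library. For Cntnap4 it was 0.48 to 0.73, also below 1 in every library. Cntnap5b was at 0.37 in oligodendrocytes, 0.34 in astrocytes and 0.42 in microglia, but at 1.58, 1.53, 1.86 and 2.39 in the OPC of the 4 libraries. Cntnap1 was above 1 in every library of every glial cluster, with means of 4.05 ± 1.296 in oligodendrocytes, 4.59 ± 1.51 in astrocytes, 3.41 ± 0.50 in OPC and 3.48 ± 0.92 in microglia and macrophages. Its own levels there were 13.2 to 16.4 CPM on average and rested on 48 to 324 UMIs per cluster. Cntnap3, with 10 to 49 UMIs per glial cluster, gave ratios from 0.25 to 2.28 and no order between clusters is read from them. With Syt1 alone as the reference, Cntnap4 rose above 1 in WT 2 of oligodendrocytes (1.06). It did so too in TRα1+m 2 of astrocytes (1.25) and of microglia (1.09), and stayed below 1 elsewhere. The 6 reference genes together were at 19703 CPM in Neurons_1 of TRα1+m 2 and at 14568 to 14982 CPM in the other libraries. The part of free RNA in these levels was not tested.

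**Figure D2:**
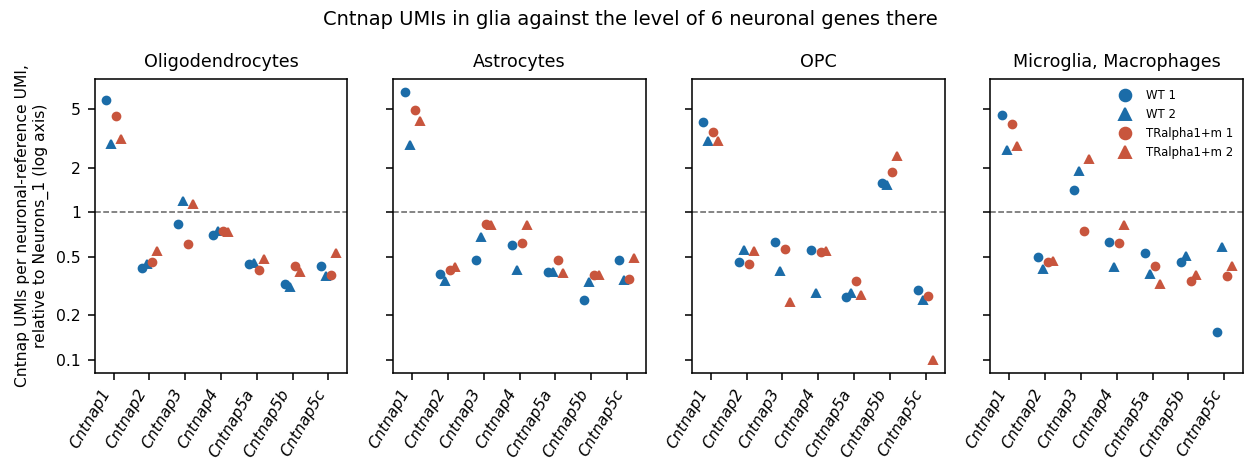
UMIs of each member per UMI of 6 neuronal genes in 4 glial clusters, relative to the same ratio in Neurons_1 of that library (log axis, the dashed line at 1 is the neuronal ratio); blue WT, red TRα1+m, circles repeat 1, triangles repeat 2. Cntnap1 lies between 2.65 and 6.46 in all 4 clusters and Cntnap5b lies above 1 in OPC, while Cntnap2, Cntnap4, Cntnap5a and Cntnap5c lie below 1 throughout.

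Among the neurons, each member had its own pattern over the 12 sub-clusters to which each library gave 10 nuclei or more. Cntnap2 and Cntnap1 had the narrowest ranges. Cntnap2 spanned 3.23-fold, from 7414 ± 361 CPM in the sub-cluster Somatostatin+ to 2297 ± 176 in the one labelled Orexin+. The sub-cluster Somatostatin+ held 7201, 7873, 7063 and 7521 CPM of Cntnap2 in the 4 libraries, and its range did not overlap that of Glutamatergic Neurons_1, the next in order at 6612 ± 203 CPM, though it overlapped that of Oxytocin+, AVP, whose WT 1 library reached 7102 CPM. It also held the highest means of Cntnap5a, 1797 ± 288 CPM, and Cntnap3, 127 ± 28.5 CPM. The libraries of the following sub-cluster overlapped it in both cases, CART Neurons_1 at 1678 ± 146 CPM for Cntnap5a and Oxytocin+, AVP at 104 ± 19.2 CPM for Cntnap3. Cntnap3 fell to 2.09 ± 0.66 CPM in POMC/CART, which rested on 7 UMIs in all.

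The 3 Cntnap5 genes differed in where they were highest. Cntnap5b was highest in the oxytocin and vasopressin neurons of the sub-cluster Oxytocin+, AVP, at 1566, 1396, 1337 and 1061 CPM, and its libraries did not overlap those of Glutamatergic Neurons_1 at 747 ± 58.8 CPM. In the same nuclei Cntnap5c was at 61.2 ± 30.5 CPM, near the low end of its own range. Cntnap5c was highest in the appetite-promoting neurons of the NPY/AgRP sub-cluster, with 710, 643, 641 and 476 CPM. CART Neurons_1 followed with 564, 435, 775 and 629 CPM, and both ranges overlapped. Cntnap5a was at only 278 ± 26.6 CPM in NPY/AgRP, and Cntnap5b at 106, 91.0, 118 and 84.6 CPM. The sub-cluster AVasopressin was low in all 3, with 200 ± 47.5 CPM of Cntnap5a, 57.3 ± 12.2 of Cntnap5b and 48.9 ± 15.4 of Cntnap5c. From the highest to the lowest sub-cluster the means spanned 9.002-fold for Cntnap5a, 26.1-fold for Cntnap5b and 12.6-fold for Cntnap5c.

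Cntnap4 and Cntnap1 had other orders again. Cntnap4, known from inhibitory synapses, was highest in the sub-cluster labelled Orexin+ with 318, 333, 370 and 354 CPM, above every library of Glutamatergic Neurons_1 at 299 ± 9.36 CPM. It was at 269 ± 21.6 CPM in GABA neurons and at 295 ± 14.8 in Glutamatergic Neurons_3, whose libraries overlapped. It fell to 45.2 ± 13.4 CPM in CART Neurons_1 and 47.4 ± 15.4 in NPY/AgRP, the sub-clusters where Cntnap5c was highest. Cntnap1 ran from 36.5 ± 11.3 CPM in Glutamatergic Neurons_3 to 11.8 ± 6.49 in Orexin+, and no pair of neighbours in its order of 17 neuronal and glial populations was separated by its libraries. For Cntnap2 6 of 16 neighbouring pairs were separated, for Cntnap4, Cntnap5a and Cntnap5b 4 each, for Cntnap3 3 and for Cntnap5c 2.

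Transmitter type was followed in Neurons_1 without the sub-cluster names, by nuclei with a UMI of Gad1, Gad2 or Slc32a1 and none of Slc17a6 (14393 Gad nuclei) and those with the reverse (7842 Slc17a6 nuclei). Cntnap5b was at 378, 288, 396 and 282 CPM in the Gad nuclei of WT 1, WT 2, TRα1+m 1 and TRα1+m 2. In the Slc17a6 nuclei it stood at 673, 594, 593 and 545 CPM, so every Slc17a6 value was above every Gad value. The ratio was 1.82 ± 0.24 (SD, n = 4). Cntnap5c was 1.31 ± 0.07 times, Cntnap5a 1.24 ± 0.05 times and Cntnap2 1.14 ± 0.03 times as high in Slc17a6 nuclei, each in 4 of 4 libraries. For Cntnap4 (1.01 ± 0.05) and Cntnap3 (1.01 ± 0.09) the libraries split 2 against 2, and Cntnap1 (1.13 ± 0.11) was higher in 3. A further 5673 nuclei held both kinds of UMI and 7848 neither, and were left out.

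**Figure D3:**
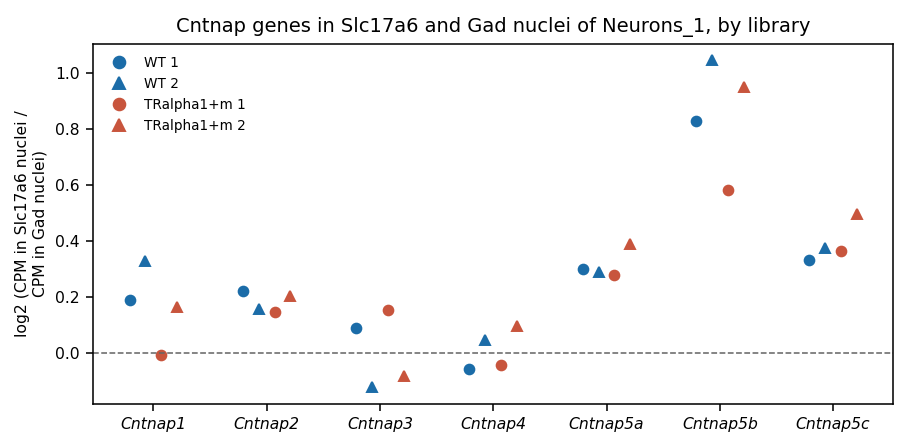
Log2 ratio of the CPM in Slc17a6 nuclei to the CPM in Gad nuclei of Neurons_1 for each member (the dashed line at 0 is no difference); each point is a library, blue WT, red TRα1+m, circles repeat 1, triangles repeat 2. Cntnap5b is highest, Cntnap2, Cntnap5a and Cntnap5c are above 0 in all 4 libraries, and Cntnap3 and Cntnap4 fall on both sides of 0.

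The genes most like a member in pattern were ranked by Pearson's r of log2(mean CPM + 1) over 18 cell-type entries, among 14055 genes. Astrocytes entered as the main cluster and again as its sub-clusters Astrocytes and Tanycytes, so the entries are not all distinct. These correlations share their libraries and the large step between neurons and glia, and describe likeness only. For Cntnap5a they were Rbfox3 (r = 0.97), Ube3a (0.96) and Cpne7 (0.96). For Cntnap5b they included Cntn6 (0.91), a contactin, and Gm28756 (0.89). Cntnap4 gave Ackr1 (0.96), Gm45904 (0.95), which overlaps it on the opposite strand, and Cdh7 (0.94). For Cntnap2 the 3 genes were Gm16105, Gm50304 and Gm33228 (all 0.97), for Cntnap5c Gm12027, Gm48281 and Entpd3 (all 0.95), for Cntnap3 Cacng3 (0.91), A830018L16Rik (0.91) and Sept6 (0.88) and for Cntnap1 Plvap (0.91), Hsf4 (0.88) and Htr7 (0.88). Between members, over the 12 neuronal sub-clusters alone, r ran from -0.41 (Cntnap3 and Cntnap5c) to 0.68 (Cntnap2 and Cntnap3), and it was 0.53 for Cntnap5a with Cntnap5b and 0.03 for Cntnap5b with Cntnap5c.

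The genotypes were then compared, to ask whether a weakened TRα1 moved the family in any cell type. In the main clusters no member passed the test. Sums of UMIs per library were fitted in edgeR over all genes of a cluster, with Benjamini-Hochberg adjustment over all genes. Of 32 tests of a member, 0 were called at an adjusted p under 0.05 and 0 had an unadjusted p under 0.05, and DESeq2 also called 0. The background of calls in edgeR was 13 of 12630 genes in oligodendrocytes, 0.103%, and 0% in Neurons_1, astrocytes, OPC and microglia. An unadjusted p under 0.05 was reached there by 672 of 12630 genes in oligodendrocytes and 193 of 19926 in Neurons_1. It was reached by 255 of 14797 in astrocytes, 185 of 11248 in OPC and 226 of 10451 in microglia. In Neurons_1 the log2 fold changes of TRα1+m against WT ran from -0.22 ± 0.28 (SE) for Cntnap1 to 0.06 ± 0.15 for Cntnap3, with -0.13 ± 0.08 for Cntnap2. Over the glial clusters they ran from -0.69 (Cntnap5b in microglia) to 0.37 (Cntnap3 in astrocytes). Cntnap3 had too few UMIs for a test in oligodendrocytes, OPC and microglia. The difference of the genotype effect between each glial cluster and Neurons_1 was called for 0 of 28 member tests. Over all genes 0.0321% were called for oligodendrocytes and 0% for the others. These fits and DESeq2 did not pair the libraries by experimental repeat. With the repeat as a block in edgeR, 0 members were called in the main clusters too. The blocked fits called 4.35% of all genes in oligodendrocytes, 1.28% in astrocytes, 0.569% in OPC, 0.335% in microglia and 0.01% in Neurons_1.

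In the neuronal sub-cluster labelled Orexin+, Cntnap5a was lower in TRα1+m. It stood at 1092 and 1151 CPM in WT 1 and WT 2, on 313 and 810 UMIs, and at 430 and 356 CPM in TRα1+m 1 and TRα1+m 2, on 185 and 154 UMIs. The groups were far apart, and the WT values were close to the 1041 ± 53.4 CPM of Neurons_1 as a whole. The log2 fold change was -1.55 ± 0.16 (SE, n = 2 per genotype) with an adjusted p of 0.000832 in edgeR. It was the only call among 90 member tests over 14 sub-clusters, where 5 had an unadjusted p under 0.05. Over all genes the share with such a p ran from 127 of 17552 in GABA to 288 of 8380 in NPY/AgRP. In the sub-cluster labelled Orexin+ it was 218 of 6973, and 3 of these 6973 genes were called, 0.043%. The background was 0.00865% in CART Neurons_1, 0.0119% in NPY/AgRP and 0% in the other 11. The family had been put forward with results of these libraries known, so this call is not independent evidence. In every alternative fit it was called, with a log2 fold change between -1.74 and -1.41 and an adjusted p up to 0.001.

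The same Cntnap5a UMIs are described here by nucleus. They are the counts that gave the call and nuclei are not replicates, so this adds no independent evidence. The upper quartile was 11.25 and 14.25 UMIs in the WT libraries and 3 and 4 in the TRα1+m libraries. A changed mix of nuclei and a change within nuclei cannot be told apart. The sub-cluster held 36, 80, 61 and 50 nuclei in WT 1, WT 2, TRα1+m 1 and TRα1+m 2, with a median of 7496, 7873, 6451 and 7921 UMIs. The median nucleus held 8 and 8.5 Cntnap5a UMIs in the WT libraries and 2 in both TRα1+m libraries. No Cntnap5a UMI was found in 2.78% and 6.25% of WT nuclei and in 14.8% and 20.0% of TRα1+m nuclei. Thinned to 900 UMIs, 50% and 58.8% of WT nuclei held one, against 21.3% and 32.0% of TRα1+m nuclei. Of the 5 genes that lead the sub-cluster none was called between genotypes in edgeR. Hdc, histidine decarboxylase, was at 974 and 873 CPM in WT and 1128 and 923 CPM in TRα1+m, and its groups overlapped, as did those of Wif1, Prph and Slc26a4. Slc16a10, a transporter of thyroid hormone and aromatic amino acids, was at 1078 and 1141 CPM in WT and 688 and 939 CPM in TRα1+m, so its groups did not overlap, with a log2 fold change of -0.49 ± 0.16 (SE). Hcrtr2, an orexin receptor that is not among these 5, was also lower in both TRα1+m libraries, at 775 and 689 CPM in WT against 595 and 671 CPM, with -0.25 ± 0.16, and was not called. The part of these differences in that of Cntnap5a was not tested.

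Cntnap5b moved the other way in the same nuclei, on few UMIs. It was at 10.5 and 25.6 CPM in WT, on 3 and 18 UMIs, and at 97.7 and 71.7 CPM in TRα1+m, on 42 and 31 UMIs. An exact Poisson interval, which covers counting error only, put WT 1 at 2.16 to 30.6 CPM, WT 2 at 15.2 to 40.4, TRα1+m 1 at 70.4 to 132 and TRα1+m 2 at 48.7 to 101.8 CPM. The log2 fold change was 2.02 ± 0.43 (SE) with an unadjusted p of 0.000316 and an adjusted p of 0.368 in edgeR, so it was not called. With the experimental repeat as a block it was called, at 1.94 ± 0.37 and an adjusted p of 8.65e-05, where 0.588% of all genes were. It was also called without the filter on low counts (adjusted p = 0.0134) and without TRα1+m replicate 2 (0.00646), and it was not called in DESeq2 (adjusted p = 1.00) nor in the other 5 alternatives, whose adjusted p ran from 0.0734 to 0.415. The UMIs came from 2, 8, 11 and 8 nuclei in the 4 libraries, and 1 nucleus of TRα1+m 1 held 21 of its 42. Without the nucleus with the most in each library, the levels were 3.62, 14.4, 50.1 and 52.6 CPM, a setting chosen after seeing the data. Cntnap5c in this sub-cluster was at 112, 99.5, 158 and 85.6 CPM and its groups overlapped. The values of Cntnap2 (2202, 2343, 2523 and 2121 CPM) overlapped too, as did those of Cntnap3 (6.98, 34.1, 11.6 and 13.9 CPM). Those of Cntnap4 did not overlap, at 318 and 333 CPM in WT and 370 and 354 CPM in TRα1+m. Nor did those of Cntnap1, at 14.0 and 17.1 against 2.33 and 13.9 CPM, on 4, 12, 1 and 6 UMIs. Neither gene was called, and the share of all genes that split in this way was not counted.

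**Figure D4:**
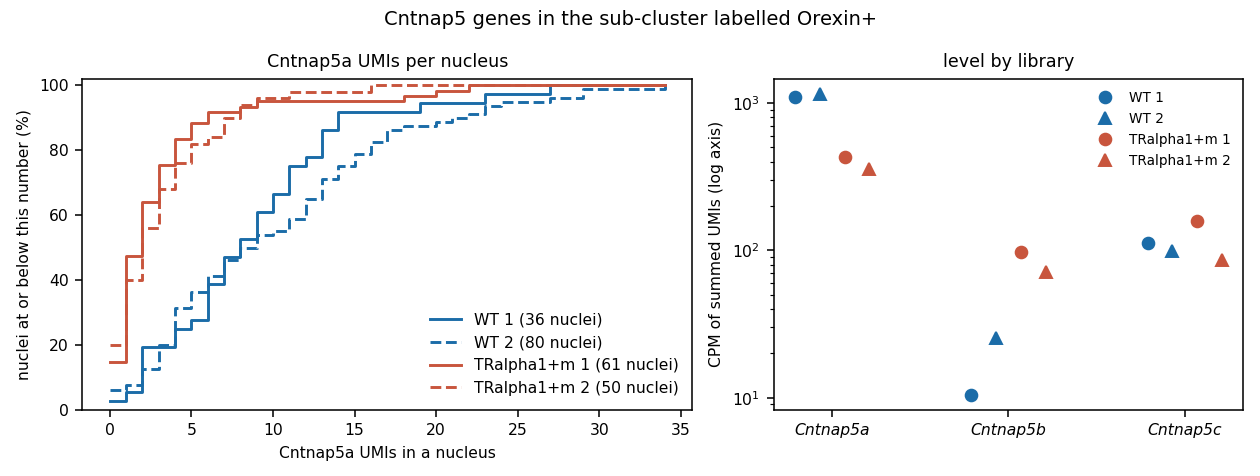
Cntnap5 genes in the sub-cluster labelled Orexin+. Left, the share of nuclei (%) at or below a number of Cntnap5a UMIs, 1 line a library (blue WT, red TRα1+m, solid repeat 1, dashed repeat 2); right, the level in CPM (log axis) by library. Both TRα1+m lines rise to the left of both WT lines, and the Cntnap5b points lie in the opposite order.

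The other 2 genes called in this sub-cluster, named after their values were seen, were Trpm3, a cation channel gene, and AC149090.1. Both were higher in TRα1+m. Trpm3 was at 112 and 99.5 CPM in WT and 388 and 261 CPM in TRα1+m, below the mean of 853 CPM in the rest of Neurons_1 in each of the 4 libraries. AC149090.1 was at 223 and 207 against 670 and 467 CPM. The paper, which tested single nuclei, reports AC149090.1 (Pisd) as higher in TRα1+m in most of its neuronal sub-clusters. Its difference is therefore not given here as particular to this sub-cluster.

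Whether the genotype difference in these nuclei was unlike that in other neurons was tested as an interaction with the rest of Neurons_1, a comparison added after seeing the data in which both sums come from the same libraries. The fits took both sums of a library as independent, with no term for the library. Their p-values therefore do not measure the spread between libraries alone. For Cntnap5a the log2 fold changes differed by -1.41 ± 0.21 (SE). The unadjusted p was 2.10e-05 and the adjusted p 0.386 in edgeR, where 0% of 18339 genes were called. With the repeat as a block the difference was -1.43 ± 0.15 with an adjusted p of 1.23e-16, and 0.0982% of genes were called. For Cntnap5b it was 2.18 ± 0.41 without the block (adjusted p = 1.00) and 2.07 ± 0.33 with it (adjusted p = 1.67e-06). In the other 11 neuronal sub-clusters the log2 fold change of Cntnap5a ran from -0.59 in Oxytocin+, AVP to 0.14 in POMC/CART with 0 calls, and that of Cntnap5b from -0.37 to 1.09 with 0 calls.

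**Figure D5:**
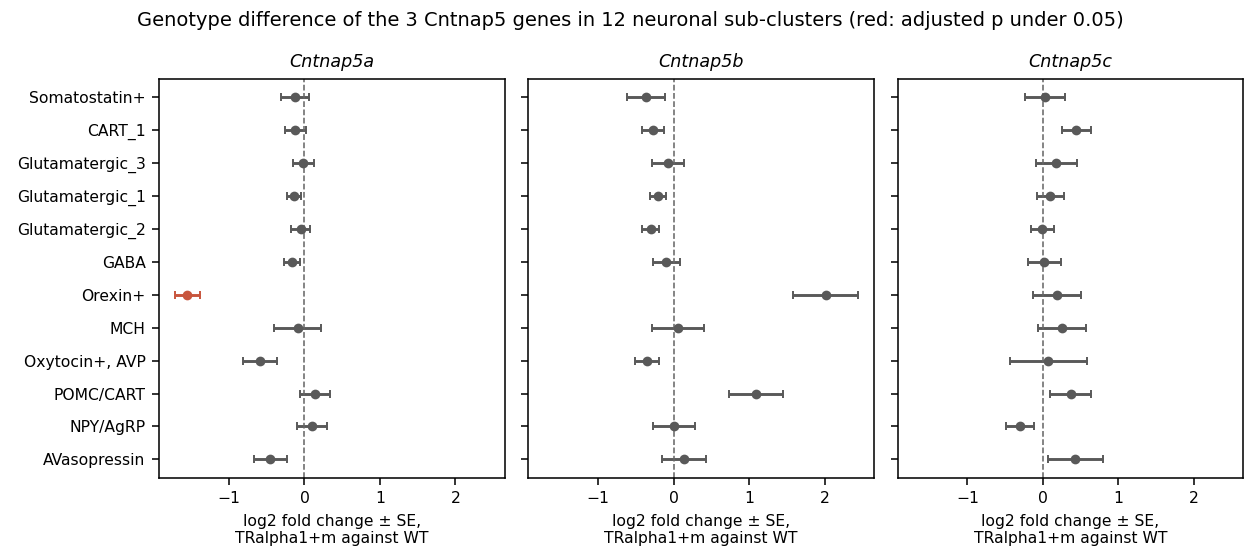
Log2 fold change of TRα1+m against WT with its SE (n = 2 libraries per genotype) for the 3 Cntnap5 genes in 12 neuronal sub-clusters, red where the adjusted p in edgeR was under 0.05. Cntnap5a in the sub-cluster labelled Orexin+, at -1.55, is the only red point, and Cntnap5b lies at 2.02 there and at 1.09 in POMC/CART.

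The block added 3 more calls among the Cntnap5 genes. Cntnap5b in POMC/CART was at 52.7 and 33.6 CPM in WT and 115.5 and 67.2 CPM in TRα1+m, higher within both repeats, with a log2 fold change of 1.04 ± 0.22 and an adjusted p of 0.00243 in the blocked edgeR fit, where 0.51% of genes were called. Cntnap5c in CART Neurons_1 was at 564 and 435 against 775 and 629 CPM, with 0.45 ± 0.09 and an adjusted p of 0.00835, and 0.389% of genes were called. Cntnap5b in Glutamatergic Neurons_2 was at 597 and 551 against 496 and 467 CPM, with -0.30 ± 0.07 and an adjusted p of 0.00811, and 0.678% were called. None of the 3 was called without the block. In Oxytocin+, AVP, Cntnap5a was at 821 and 793 CPM in WT and 688 and 417 CPM in TRα1+m and was called only when TRα1+m replicate 1 was left out (adjusted p = 0.0133 in edgeR).

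More genes were called between the repeats than between the genotypes in every main cluster, and members were among them. Repeat 2 against repeat 1, fitted beside genotype in edgeR, gave 6 calls of 32. In Neurons_1 Cntnap1 was higher in repeat 2 (log2 fold change 0.52 ± 0.09, adjusted p = 0.00459) and Cntnap5c (-0.34 ± 0.06, 0.00477), Cntnap5b (-0.29 ± 0.05, 0.00469) and Cntnap4 (-0.20 ± 0.06, 0.0349) were lower. Cntnap5b was lower in oligodendrocytes (-0.75 ± 0.25, 0.0307) and Cntnap2 in astrocytes (-0.38 ± 0.12, 0.0244). All genes were called in this contrast at 25.2% in Neurons_1, 12.4% in oligodendrocytes, 20.6% in astrocytes, 11.4% in OPC and 6.27% in microglia, beside 4 of 7 members in Neurons_1, 1 of 6 in oligodendrocytes, 1 of 7 in astrocytes and 0 of 6 in both OPC and microglia. DESeq2 called 3, all in Neurons_1. The repeats also differed in depth, with a median of 3990 and 3797 UMIs per Neurons_1 nucleus in repeat 1 and 5227 and 4834 in repeat 2, and the part of depth was not tested.

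The binding partners of the family were taken as a list of 34 genes, the 6 contactins and components of the node, paranode and juxtaparanode with 3 transcription factors tied to Cntnap2. In oligodendrocytes 1 of 33 tested was called, where 0.103% of all genes were. This was Kcna1, a potassium channel subunit that Caspr2 holds at the juxtaparanode of axons. In oligodendrocyte nuclei Kcna1 was at 207 and 165 CPM in WT and 42.5 and 33.3 CPM in TRα1+m. In Neurons_1, where it was not called, it was at 27.8 and 20.7 CPM in WT and 20.9 and 19.9 CPM in TRα1+m. The log2 fold change in oligodendrocytes was -2.23 ± 0.22 with an adjusted p of 0.0462 in edgeR. The call rested on both WT libraries: without WT replicate 1 the adjusted p was 0.285 and without WT replicate 2 it was 0.248, with log2 fold changes of -2.03 and -2.40. Cntn4 was at 66.7 ± 3.71 CPM in WT and 144 ± 19.2 in TRα1+m, 1.18 ± 0.18 on the log2 scale, with an adjusted p of 0.145 and, with the repeat as a block, 7.30e-09. With the block 5 of 33 were called in oligodendrocytes, where 4.35% of all genes were. In Neurons_1, astrocytes, OPC and microglia 0 of 34, 33, 32 and 30 partners were called in edgeR without the block. Of these partners 1, 3, 3 and 4 had an unadjusted p under 0.05. Over all genes this held for 193 of 19926, 255 of 14797, 185 of 11248 and 226 of 10451 in the same order. With the block 2 partners were called in astrocytes, where 1.28% of all genes were, and 2 in OPC, where 0.569% were. In astrocytes these were Cntn1, at 612 and 688 CPM in WT and 436 and 493 CPM in TRα1+m (log2 fold change -0.47 ± 0.11, adjusted p = 0.0092 in edgeR), and Kcnq3 (0.50 ± 0.12, 0.0125). In OPC they were Foxp2 (0.87 ± 0.17, 0.000346) and Cntn3, at 101 and 74.9 against 51.4 and 49.5 CPM (-0.84 ± 0.19, 0.0028). Kcnq3 and Foxp2 were named after their values were seen. The block called 0 partners in Neurons_1, where 0.01% of all genes were called, and 0 in microglia, where 0.335% were.

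Unlike the Casprs, Cntn1, Cntn2, Cntn4 and Cntn6 had a higher mean in a glial cluster than in Neurons_1. Cntn3 and Cntn5 were lower in oligodendrocytes and astrocytes than in Neurons_1. Cntn4 was at 733 ± 39.8 and Cntn6 at 314 ± 35.7 CPM in Neurons_1. In Neurons_1 Cntn1, the partner of Caspr, was at 643 ± 29.8 CPM and Cntn5 at 1849 ± 96.0 CPM. Cntn2, the partner of Caspr2, was at 25.5 ± 6.11 CPM in Neurons_1 and 206 ± 78.9 CPM in oligodendrocytes. OPC, where Cntnap5b stood out among glia, held 1609 ± 136 CPM of Cntn1, 1351 ± 48.6 of Cntn4 and 466 ± 42.9 of Cntn6. Cntn6 was also at 1059 CPM in Oxytocin+, AVP, the sub-cluster with the most Cntnap5b.

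Promoter windows from RefSeq on GRCm38 were at hand for 3 members, as 4 windows of 300 bases for Cntnap2, Cntnap3 and Cntnap5b. None held AGGTCA, the hexamer from which thyroid hormone response elements are built, on either strand, while 16.3% of 32851 windows did. The absence of these letters from a window says nothing of the receptor, and the rest of the genes was not searched.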

How the data were processed

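Nuclei of 4 libraries were profiled with 10x Genomics 3′ chemistry. The authors aligned reads with Cell Ranger 5.0.1 to mm10 (GRCm38), introns included, and deposited raw UMI counts of 68190 barcodes with an annotation of the 56386 nuclei that passed their filters, clustered in Seurat. Here the deposited counts were summed per library and annotated cluster, and no nucleus was treated as a replicate. The main test was the edgeR 4.0.16 quasi-likelihood test (R 4.3.3, filterByExpr, TMM factors, robust), adjusted by Benjamini-Hochberg over all genes of a cluster at a threshold of 0.05. A cluster was tested if each library gave it 10 nuclei or more. Fits were checked on counts simulated with the same spread for all genes and no difference between repeats. The check therefore does not cover the repeat differences seen in these libraries. The alternatives left out each library, added the repeat as a block, kept low counts, adjusted the fit for bias, or used DESeq2 1.42.0 or its size factors (RLE). The study's methods place a WT and a TRα1+m library in each experimental repeat. Deviations of libraries of the same repeat correlated (r = 0.67 for Neurons_1, 0.67 for astrocytes, 0.54 for oligodendrocytes, 0.49 for OPC and 0.39 for microglia), so the repeats pair the libraries. Doublets had been removed by the authors and no caller was run again. The study tested single nuclei by rank sums. The p-values of the main fits measure the spread between pooled libraries instead. The interactions do not measure it alone, as they took both sums of a library as independent. Fits with the block take out the spread between repeats. These fits and those without a library leave little spread of a gene's own to measure. Their p-values therefore lean on the spread estimated over all genes. Named were all 7 members, the 3 genes most like each in pattern (1 of which is not reported here), the contactins, the partners called in a main cluster and marker genes. The members, lists and tests were chosen with earlier results of these data known.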

Additional observations from a re-analysis of the deposited data

Results flagged for a closer look

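The genotype effect on 2 members differed between the sub-cluster labelled Orexin+ and the rest of Neurons_1 when the experimental repeat was a block. For Cntnap5a the log2 fold change of TRα1+m against WT was lower there by a difference of -1.43, and for Cntnap5b it was higher by 2.07. This fit took both sums of a library as independent, so its p-values do not measure the spread between libraries alone. Without the block neither difference was called in edgeR with the filter on low counts, and both were called without that filter. The sub-cluster held 227 nuclei, and its name went against its Hcrt level.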

How the results depend on the processing

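Of the member tests in sub-clusters, 1 call became 2 without the filter on low counts, 5 with the repeat as a block and 1 to 2 when a library was left out. Partner calls went from 1 to 2 without the filter, 9 with the block and 0 to 4 when a library was left out. Over all genes the block raised the calls as well, from 0.103% to 4.35% in oligodendrocytes and from 0.043% to 0.588% in the sub-cluster labelled Orexin+. Without the filter, calls over all genes rose from 13 of 12630 to 120 of 21458 in oligodendrocytes. In the sub-cluster labelled Orexin+ they rose from 3 of 6973 to 11 of 18261. These rises were therefore not particular to the members or partners. Fits without a library left a genotype with a single library, so their counts of calls are not read further. The 6 repeat calls became 2 without the genotype term and 3 in DESeq2. Over all genes the repeat calls in Neurons_1 went from 5025 to 4198 without the genotype term and 2664 in DESeq2. In oligodendrocytes they went from 1568 to 344 and 318. Of the 21 genes most like a member, 6 were kept with Spearman's rho and 5 over neuronal sub-clusters alone. The difference between the sub-cluster labelled Orexin+ and the rest of Neurons_1 was called for Cntnap5a at -1.44 without the filter and -1.43 with the block, and for Cntnap5b at 2.15 and 2.07. The causes were not tested. The pairing by repeat changed no other member call. Log2 fold changes of the Cntnap5 genes called in a sub-cluster kept their sign in every alternative, as did Kcna1 and Cntn4 in oligodendrocytes. Some differences between cell types that were not called changed sign when a library was left out. For Cntnap5b, oligodendrocytes against Neurons_1 went from 0.25 to -0.21 without TRα1+m replicate 1. For Cntnap3, the sub-cluster labelled Orexin+ against the rest of Neurons_1 went from -1.05 to 0.72 without WT replicate 2. Each genotype had 2 libraries and that sub-cluster 227 nuclei, and no detection limit was computed.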

Other observations

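Neurons_2, which came almost wholly from TRα1+m 2 and entered no comparison, had another mix of members. In that library it held 3561 CPM of Cntnap2, 759 CPM of Cntnap4, 154 CPM of Cntnap3 and 54.0 CPM of Cntnap5a, against 4375, 233, 29.9 and 966 CPM in Neurons_1 of the same library. Library and cell type cannot be told apart there.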
